A study of Mus musculus with 24 samples.

Results

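The genes described here encode the heterogeneous nuclear ribonucleoproteins (hnRNPs), the serine/arginine-rich (SR) splicing factors, the Sm and other proteins of the small nuclear ribonucleoproteins (snRNPs), the splicing factor 3 (SF3) and U2AF subunits, and both copies of *Mfap1*. They were chosen by gene name alone: a non-control probe was a member when its name on the array began with Hnrnp, Srsf or Sfrs followed by a digit, Snrp, Snrnp, Sf3a, Sf3b, U2af or Mfap1. Of 55681 non-control probes, 113 probes for 62 genes met this rule. A probe was counted as measured when its Cy5 signal averaged over 2 times the local background across the arrays, which 84 member probes for 56 genes passed, among 14312 probes for 9139 named genes in all.

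Expression was measured in *M. gastrocnemius* of male C57BL/6JOlaHsd mice, 12 in the Hypox group and 12 in the Norm group, with 1 mouse per array. All mice arrived at 10 weeks of age, ate a low-fat diet (10% of energy from fat) for 3 weeks and a high-fat diet (40%) for 6 weeks, and were fasted before exposure. Hypox mice then breathed 12% O2 for 6 h and Norm mice 20.9% O2 for 6 h. Each value below is a log2 ratio of the mouse's RNA (Cy5) to a reference pool of all samples (Cy3), so 0 is the level of the pool, and a log2 fold change is the Hypox mean minus the Norm mean. Both groups share sex, strain, diet and fasting, and the RNA came from whole muscle, in which fewer cells of a type and less RNA per cell cannot be told apart.

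Splicing removes introns from precursor mRNA in the spliceosome, which is built on each intron from snRNPs and many further proteins. The Sm proteins form a ring on the small nuclear RNAs, U1 recognises the 5′ splice site, U2AF and the SF3 complexes of U2 act at the 3′ splice site and branch point, and the U4/U6 and U5 proteins join before catalysis. SR proteins generally favour the use of exons they bind, hnRNPs coat nascent transcripts and often oppose it, and several members of both families keep their own mRNA level in check by alternative splicing.

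The arrays lay on 6 slides with 2 Norm and 2 Hypox arrays each, and their mean Cy5 signals spanned 58.3 to 933 (Norm) and 63.5 to 1014 (Hypox). The log2 mean Cy5 signal was 0.23 higher in Hypox (permutation over all arrays, *P*-value = 0.653). Within slides the difference was 0.02 to 0.46, above 0 on 6 of 6 (exact permutation within slides, two-sided *P*-value = 0.0739), and the part of this difference in the results was not tested. All 10 muscle fibre markers were measured, at 420 to 3892 times background. None passed the test in limma (0 at an unadjusted or adjusted *P*-value under 0.05), but 8 of 10 lay below 0 and the list median was -0.27, down to -0.59. Markers of other cell types also differed at unadjusted *P*-values under 0.05, where 7.07% of all genes were higher and 4.99% lower. For endothelium, 3 of 7 measured markers (*Cdh5*, *Esam* and *Cldn5*) were higher. Only 4 of the 7 lay above 0, and the list had a median fold change of 0.19 and a lowest of -0.15. The mean log2 ratio of this list spanned -0.29 to -0.05 on the Norm arrays and -0.16 to 0.00 on the Hypox arrays. For lung, *Sftpc* was higher, 8 of the 10 markers were not measured, and the list spanned -0.90 to -0.11 (Norm) and -0.72 to 1.33 (Hypox). Fibroblast and adipocyte lists each had 2 markers lower (of 10 and 7 measured), and satellite cell, leukocyte and red blood cell lists had 0 called. The part of these lists in the results on splicing genes was not tested.

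Few splicing genes differed after hypoxia. At the unadjusted *P*-value under 0.05 that the study used, 12 of 84 member probes differed (14.3%), against 14.1% of all probes tested, so the share was near the background. Of these, 8 were higher in Hypox, against 7.48% of all probes, and 4 were lower, against 6.57%. After Benjamini-Hochberg adjustment over all probes 1 member probe remained, that of *Mfap1b*, against 0.999% of all probes. Counted by the brightest probe of each gene (highest mean log2 intensity over both dyes), 6 genes were higher (*Srsf2*, *Srsf3*, *Snrpd1*, *Snrpn*, *Snrnp40* and *Hnrnpa0*; background 7.07%) and 1 was lower (*Mfap1b*; background 4.99%), together 12.5% of the 56 genes against 12.1% of all genes. The median log2 fold change over the 56 genes was 0.07, against 0.03 over all genes, and 69.6% of the genes lay above 0, against 58.8% of all genes. Over probes the share above 0 was 66.7%, against 56.7% of all probes. With each array centred on its median in place of loess, the median of all genes moved to 0.25 and 0 member probes were called by limma, with or without adjustment, against 0.412% of all probes.

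**Figure D1:**
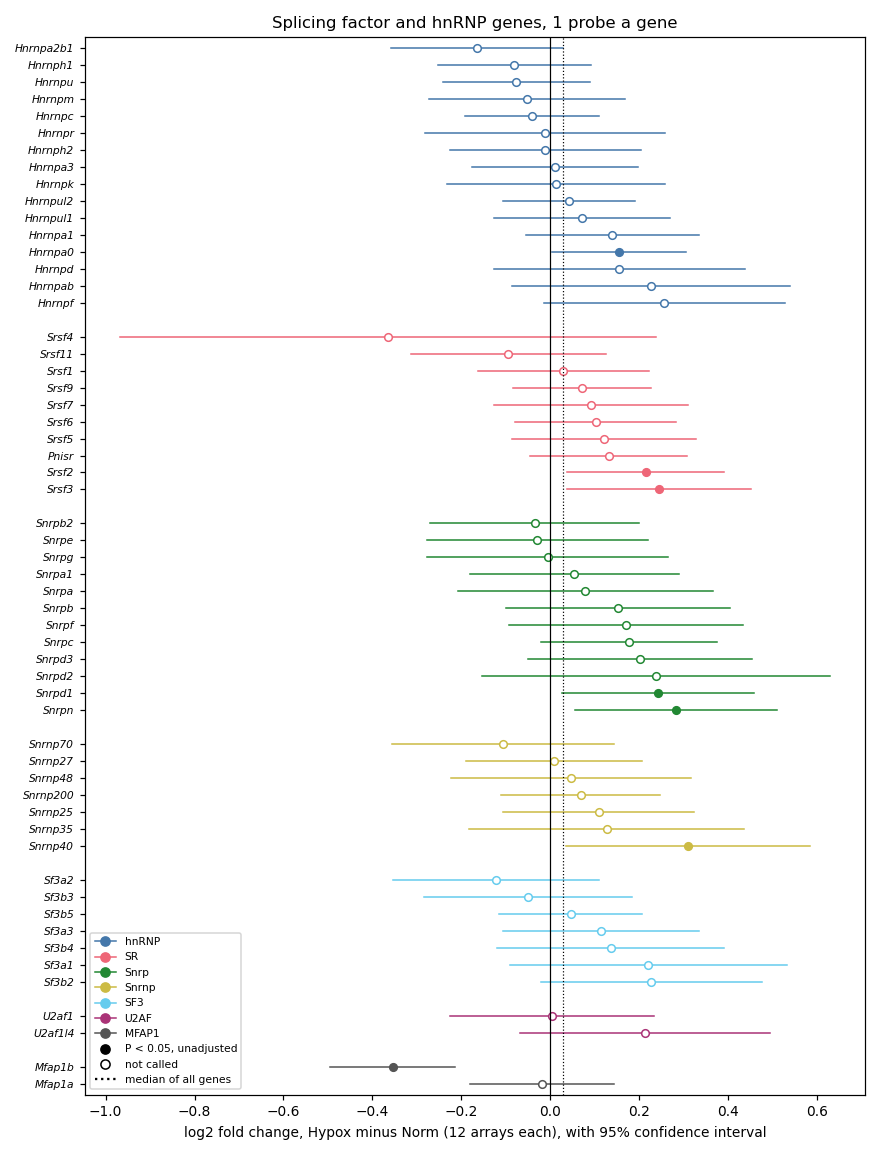
Log2 fold change (Hypox minus Norm, 12 arrays each) of the brightest probe of each of the 56 measured genes, grouped by family, with the 95% confidence interval of the limma fit; filled points passed an unadjusted P-value under 0.05 and the dotted line is the median of all genes (0.03). *Mfap1b* is the one filled point below 0, and *Srsf4* has the widest interval.

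The 4 probes that were lower in Hypox were all dim, at 2.37 to 3.91 times background. They were 4 of 21 member probes at 2 to 4 times background, against 5.34% of all probes there. Among the 63 member probes over 4 times background, 0 lower calls and 6 of the 8 higher calls fell in this fit. Of all probes at 4 to 10 times background, 8.7% were higher and 5.65% lower. Over 10 times background the shares were 8.04% and 8.37%. Of the 4, 3 were not the brightest probe of their gene. When only probes over 4 times background were fitted, 5 of 63 member probes were called (7.94%), all higher, against 14.8% of all probes. The 12 called probes, array by array, overlapped between the groups in each case.

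**Figure D2:**
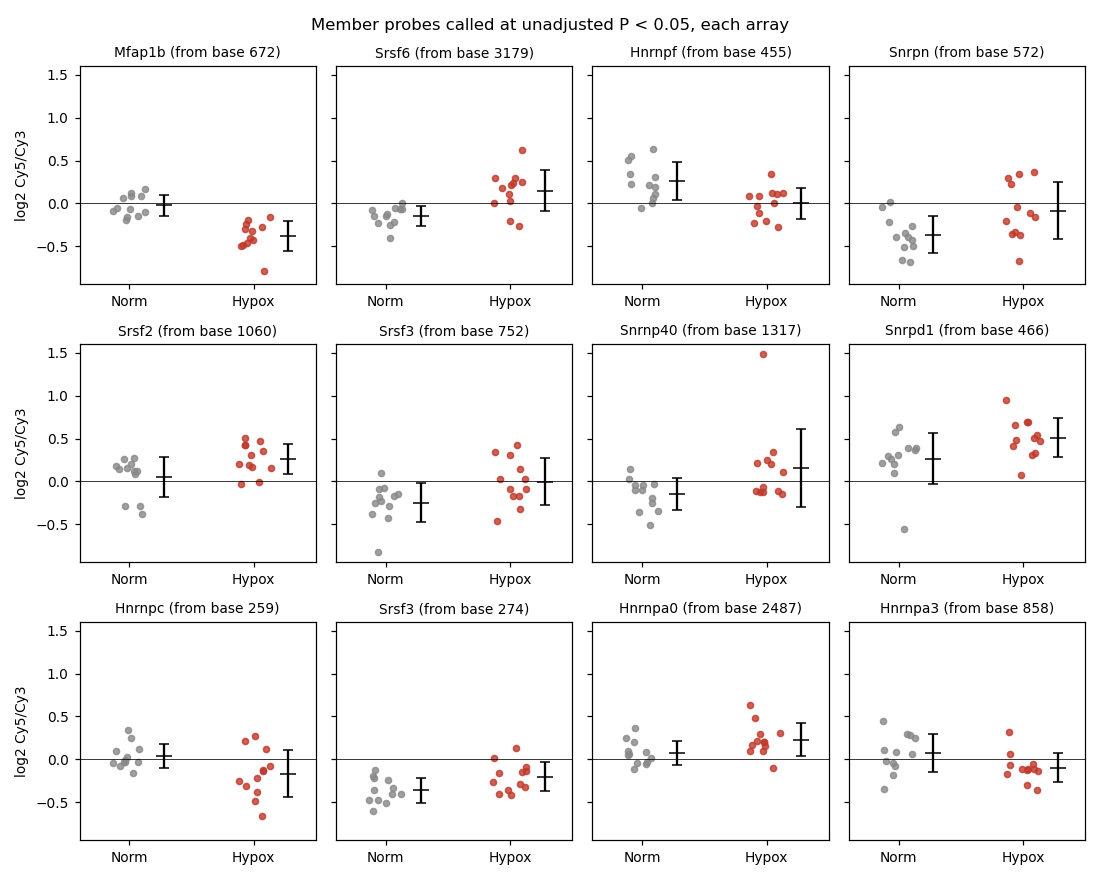
Log2 Cy5/Cy3 ratio of each array for the 12 member probes with an unadjusted P-value under 0.05, with the base of the transcript at which each probe starts; grey points are the 12 Norm and red points the 12 Hypox arrays, and the black bars are the mean and SD. For *Mfap1b* 10 of 12 Hypox arrays lie below every Norm array, and a single Hypox array at 1.48 stands apart for *Snrnp40*.

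*Mfap1b* gave the clearest difference. The MFAP1 protein was named for microfibrils but is a nuclear component of the spliceosome. The mouse has a pair of near-identical genes for it, *Mfap1a* and *Mfap1b*, side by side on chromosome 2. The *Mfap1b* ratio ran from -0.20 to 0.17 in Norm (median -0.06) and from -0.78 to -0.15 in Hypox (median -0.36). All 12 Hypox arrays lay below the Norm median and 10 of 12 below the lowest Norm array. *Mfap1b* fell by 0.35 on the log2 scale (SE 0.069, limma, *P*-value = 2.05e-05, adjusted *P*-value = 0.0155), and was lower in Hypox on 6 of 6 slides. Under other scalings of the same arrays the value was -0.61 (Agilent processed signals, *P*-value = 0.0402), -0.32 (Cy5 alone, *P*-value = 0.0215), -0.29 (deposited log2 table, *P*-value = 0.0438) and -0.13 (median centring, *P*-value = 0.447), and it passed adjustment in none of these. Its signal was low, at 2.53 times background, and counted as well above background by the scanner software on 9 Norm and 6 Hypox arrays.

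The *Mfap1a* probe, by contrast, averaged 0.12 ± 0.16 in Norm mice and 0.10 ± 0.20 in Hypox mice (SD, n = 12 per group). Its log2 fold change was -0.02 (*P*-value = 0.816). The difference between the fold changes of *Mfap1b* and *Mfap1a* was -0.34 (permutation test, 100000 resamples, *P*-value = 0.0007), in the same direction on 6 of 6 slides. This permutation *P*-value was not adjusted, and the *Mfap1b* probe entered it with the smallest *P*-value of all member probes. A second *Mfap1a* probe was too dim to be counted, at 1.62 times background. The *Mfap1b* probe is shown because the result rests on it alone. It starts at base 672 of the transcript. The probe spans chr2:121292832-121295570 (mm9), which is longer than its 60 bases, so it joins exons. Whether all of it lies within the coding sequence was not tested. It is printed 5′ to 3′ in lower case throughout, since no stretch of it was singled out. Whether it also reads *Mfap1a* RNA was not tested.
*Mfap1b* probe: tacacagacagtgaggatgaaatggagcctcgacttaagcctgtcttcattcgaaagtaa

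The regions just before the start sites of both copies (RefSeq, GRCm38.p6, minus strand) are shown because the copies gave different values. Aligned over 256 columns, the 250 bases upstream of each start were identical at 217 (84.8%), with 27 mismatches and 12 gapped columns. Capitals mark the bases that differ from the other copy, gaps included.
*Mfap1b*, chr2:121474024-121474273: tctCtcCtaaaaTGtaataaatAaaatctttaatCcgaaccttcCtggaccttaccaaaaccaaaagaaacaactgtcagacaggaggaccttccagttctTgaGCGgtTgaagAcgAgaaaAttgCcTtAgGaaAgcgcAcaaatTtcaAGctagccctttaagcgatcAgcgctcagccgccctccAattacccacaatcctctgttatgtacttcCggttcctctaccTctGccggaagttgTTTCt
*Mfap1a*, chr2:121506657-121506906: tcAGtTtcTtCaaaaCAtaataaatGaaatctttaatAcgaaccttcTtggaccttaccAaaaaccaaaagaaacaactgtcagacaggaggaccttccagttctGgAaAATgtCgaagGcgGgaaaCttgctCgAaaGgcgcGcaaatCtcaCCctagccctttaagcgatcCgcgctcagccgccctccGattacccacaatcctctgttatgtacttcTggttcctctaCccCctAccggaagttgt
The letters CCGGAAGT, the form bound by many ETS factors, were searched on both strands, where they read ACTTCCGG. They occurred 2 times upstream of *Mfap1b* and 1 time upstream of *Mfap1a*. At least 1 match was held by 2.88% of all 32851 promoter windows of this length, by 6.93% of the 7241 measured genes with a window and by 10 of the 49 member genes with one (20.4%). Besides both *Mfap1* copies these were *Hnrnpd*, *Hnrnpf*, *Sf3a3*, *Sf3b2*, *Snrnp27*, *Srsf4*, *Srsf5* and *Srsf11*, of which 0 were called by their brightest probe. A match is a description of the letters only.

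Among the SR proteins, 4 of 16 probes were higher in Hypox and 0 were lower, against 7.48% and 6.57% of all probes. By the brightest probe 2 of 10 genes were higher, against 7.07% of all genes. The family median over 10 genes was 0.10, and the medians within slides ran from -0.05 to 0.17, with 5 of 6 above 0. *Srsf6*, which encodes an SR protein with a pair of RNA recognition motifs, gave the smallest *P*-value of the family at a probe near the end of its transcript (from base 3179). This *Srsf6* ratio ran from -0.41 to 0.00 in Norm (median -0.13) and from -0.26 to 0.63 in Hypox (median 0.20), and 9 of 12 Hypox arrays exceeded the highest Norm array. It was 0.29 higher (SE 0.0799, limma, *P*-value = 0.000986, adjusted *P*-value = 0.0678), on 6 of 6 slides. With processed signals the value was 0.69 (*P*-value = 0.0148), and with median centring it was 0.36 and not called (*P*-value = 0.0867). The *Srsf6* probe at base 1235, taken as the brightest over both dyes although its Cy5 signal was close (3.08 against 3.14 times background), gave 0.10 (*P*-value = 0.256). After removal of group and slide means the values of both probes correlated at r = -0.48 across the 24 arrays.

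*Srsf3*, the smallest SR protein and known for roles in both splicing and mRNA export, was higher at both of its measured probes. At the brighter one (from base 752) the ratio ran from -0.83 to 0.10 in Norm (median -0.21) and from -0.46 to 0.42 in Hypox (median -0.03), with 4 of 12 Hypox arrays above every Norm array. The log2 fold change of *Srsf3* was 0.25 there (SE 0.101, limma, *P*-value = 0.0217, adjusted *P*-value = 0.259), on 5 of 6 slides. This call was lost in 2 of 10 alternatives of scaling, filter, test, block or slides. At the coding probe (from base 274) the ratio ran from -0.61 to -0.13 in Norm (median -0.38) and from -0.42 to 0.14 in Hypox (median -0.22), 0.16 higher (SE 0.0715, *P*-value = 0.034, adjusted *P*-value = 0.305) and on 6 of 6 slides. The call at the coding probe was lost in 7 of 24 fits with 1 array left out (*P*-values up to 0.0708), and with processed signals (0.29, *P*-value = 0.256), median centring (0.38, *P*-value = 0.204), Cy5 alone (0.20, *P*-value = 0.328) and the deposited table (0.19, *P*-value = 0.177). Among genes with more than 1 measured probe, *Srsf3* was the only one with 2 probes called, and the coding probe is shown for that reason (chr17:29173333-29173392, mm9). A noncoding transcript is listed on the array beside *Srsf3* for these probes, and whether they also read other transcripts was not tested.
*Srsf3* probe: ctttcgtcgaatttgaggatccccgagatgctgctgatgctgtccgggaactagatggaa

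*Srsf2*, an SR protein of exonic enhancers, ran from -0.38 to 0.28 in Norm (median 0.13) and from -0.03 to 0.51 in Hypox (median 0.25) at its brighter probe, and 6 of 12 Hypox arrays exceeded every Norm array. The *Srsf2* difference was 0.21 (SE 0.0863, limma, *P*-value = 0.0192, adjusted *P*-value = 0.247), on 6 of 6 slides, while its other measured probe gave -0.06 (*P*-value = 0.439). The *Srsf2* call was lost in 2 of 9 such alternatives. Of the SR genes that were not called, *Srsf5*, *Srsf7*, *Srsf9* and *Srsf1* gave 0.12, 0.09, 0.07 and 0.03. *Pnisr*, which the array lists under its old name Sfrs18 and which is an SR-related rather than a classical SR protein, gave 0.13 (*P*-value = 0.138). *Srsf11* gave -0.09 (*P*-value = 0.388). *Srsf4* had the lowest fold change of all 56 genes, -0.36 (*P*-value = 0.226), but 1 Norm array (replicate 10) stood at 3.66, and without it the value was -0.06 (*P*-value = 0.597).

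Among the hnRNPs, 1 of 26 probes was higher and 3 were lower, against 7.48% and 6.57% of all probes. The family median over 16 genes was 0.01, close to the 0.03 of all genes, with medians within slides from -0.05 to 0.14. *Hnrnpa0*, an hnRNP that binds AU-rich elements, ran from -0.11 to 0.36 in Norm (median 0.06) and from -0.10 to 0.63 in Hypox (median 0.20), and only 2 of 12 Hypox arrays exceeded the highest Norm value. The *Hnrnpa0* difference was 0.16 (SE 0.0736, limma, *P*-value = 0.0439, adjusted *P*-value = 0.339). With 1 array left out in turn, it lost the call in 13 of 24 fits, with *P*-values up to 0.0944. The call was also lost in 8 of 10 alternatives of scaling, filter, test, block or slides. Its second probe, at 1.80 times background, was not counted.

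The 3 hnRNP probes called lower belonged to *Hnrnpf*, *Hnrnpc* and *Hnrnpa3*, whose brightest probes were not called. *Hnrnpf* binds runs of G in RNA. Its probe from base 455, at 2.37 times background, ran from -0.06 to 0.64 in Norm (median 0.22) and from -0.28 to 0.35 in Hypox (median 0.04), and 4 of 12 Hypox arrays lay below every Norm array. This probe fell by 0.26 on the log2 scale (SE 0.085, limma, *P*-value = 0.00513, adjusted *P*-value = 0.152), on 6 of 6 slides. Its size depended on the scaling, at -1.22 with processed signals, -0.52 in the deposited table, -0.32 with Cy5 alone and -0.11 with median centring (*P*-value = 0.481). It was well above background on 10 Norm and 5 Hypox arrays. The brightest *Hnrnpf* probe, from base 2412 and at 15.6 times background, ran from -0.22 to 0.44 in Norm (median 0.20) and from -0.13 to 1.54 in Hypox (median 0.41), a log2 fold change of 0.26 (SE 0.132, *P*-value = 0.0625). That *Hnrnpf* value was 0.16 without Hypox replicate 12, the array at 1.54.

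*Hnrnpc* encodes a core protein of the hnRNP particle that binds runs of U. Its probe from base 259 ran from -0.16 to 0.35 in Norm (median -0.02) and from -0.66 to 0.27 in Hypox (median -0.18), with 6 of 12 Hypox arrays below every Norm array. It fell by 0.21 on the log2 scale (SE 0.0909, limma, *P*-value = 0.0309, adjusted *P*-value = 0.299), and lost the call in 5 of 24 fits with 1 array left out. The brightest *Hnrnpc* probe, from base 1277, gave -0.04 (*P*-value = 0.589). *Hnrnpa3*, a member of the A/B type known for trafficking of mRNA, had 5 measured probes, of which the dimmest, from base 858 and joining exons, ran from -0.34 to 0.44 in Norm (median 0.08) and from -0.36 to 0.32 in Hypox (median -0.12). It fell by 0.17 on the log2 scale (SE 0.0836, limma, *P*-value = 0.049985, adjusted *P*-value = 0.356), at the limit of the threshold, and lost the call in 17 of 24 fits with 1 array left out. The other *Hnrnpa3* probes gave values from -0.19 to 0.08. A noncoding transcript is listed for this gene too, and whether its probes also read other transcripts was not tested. The lower probes of these 3 genes are shown because each stands nearer the 5′ end of its transcript than the brightest probe of the gene (*Hnrnpf* chr6:117873933-117873992, *Hnrnpc* chr14:52703914-52703973, *Hnrnpa3* chr2:75500962-75501666, mm9).
*Hnrnpf* probe: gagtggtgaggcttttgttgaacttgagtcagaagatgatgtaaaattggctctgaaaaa
*Hnrnpc* probe: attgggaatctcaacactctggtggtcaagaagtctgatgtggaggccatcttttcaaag
*Hnrnpa3* probe: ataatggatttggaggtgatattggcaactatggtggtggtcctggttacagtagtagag

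Of the remaining hnRNP genes, *Hnrnpa2b1* had the lowest value by the brightest probe, -0.16 (*P*-value = 0.0931), with a range of -0.39 to 0.49 in Norm and -0.58 to 0.02 in Hypox, and *Hnrnpab* and *Hnrnpd* gave 0.23 (*P*-value = 0.147) and 0.16 (*P*-value = 0.268). *Hnrnpa1*, the most studied A/B protein and one with many processed copies in the genome, gave 0.14 (*P*-value = 0.153). *Hnrnph1*, *Hnrnph2*, *Hnrnpm*, *Hnrnpr* and *Hnrnpu* gave values from -0.08 to -0.01, and *Hnrnpk*, *Hnrnpul1* and *Hnrnpul2* from 0.01 to 0.07. For none of these did the 95% confidence interval exclude 0.

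The disagreement between probes of one gene was tested directly. In 22 member genes with more than 1 measured probe there were 28 pairs of the brightest probe with another, and the difference between their fold changes was compared by permutation of the group labels (100000 resamples, 28 tests). With its dim probe as above, the *Hnrnpf* pair differed by 0.52 (*P*-value = 0.00136, adjusted *P*-value = 0.0381), in the same direction on 6 of 6 slides, and was the only pair that passed adjustment or that differed by over 0.3. The pair test was not repeated without Hypox replicate 12 or under the other scalings. The *Srsf2* pair differed by 0.27 (*P*-value = 0.00593, adjusted *P*-value = 0.083). The *Hnrnpc* pair differed by 0.17 (*P*-value = 0.143), the *Hnrnpa3* pair with the called probe by 0.18 (*P*-value = 0.154) and the *Srsf6* pair by 0.19 in size (*P*-value = 0.183), with an adjusted *P*-value of at least 0.618 for each. In 12 of 28 pairs the fold changes had opposite signs. After removal of group and slide means, the correlation between probes of one gene across the 24 arrays had a median of 0.18 and ran from -0.48 to 0.87 (*Snrpd2*), as a description of points that share the array and its brightness.

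**Figure D3:**
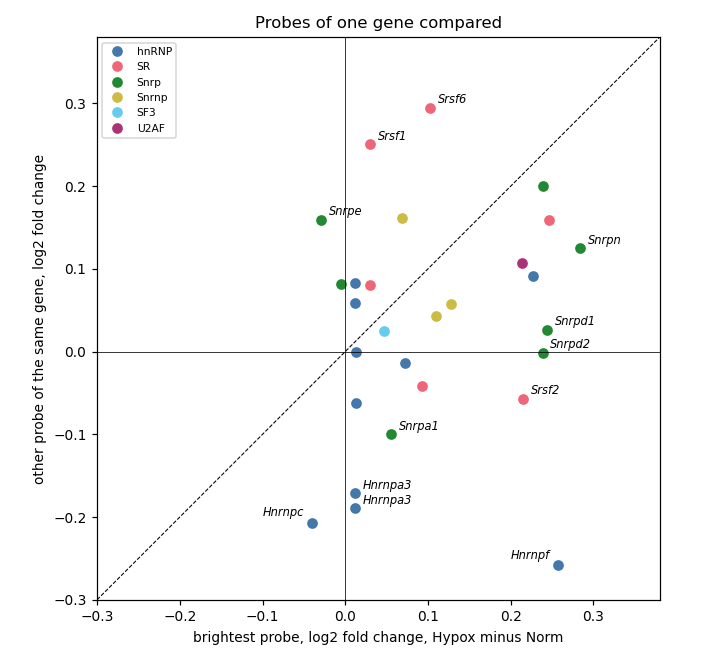
Log2 fold change (Hypox minus Norm) of the brightest probe of a gene, on the x axis, against that of each other measured probe, on the y axis, for 28 pairs in 22 genes, coloured by family; the dashed line marks equal values. *Hnrnpf* lies farthest from the line, at 0.26 and -0.26.

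Among the Sm and other Snrp proteins, 2 of 19 probes were higher and 0 were lower, against 7.48% and 6.57% of all probes. The median over 12 genes was 0.16, above the 0.03 of all genes, with medians within slides from -0.07 to 0.20 and 5 of 6 above 0. *Snrpn*, an Sm protein of the SmB type from the imprinted locus on chromosome 7, ran from -0.68 to 0.01 in Norm (median -0.39) and from -0.68 to 0.37 in Hypox (median -0.13), with 11 of 12 Hypox arrays above the Norm median and 4 above every Norm array. The *Snrpn* difference was 0.28 (SE 0.111, limma, *P*-value = 0.0165, adjusted *P*-value = 0.235), on 5 of 6 slides, and its other measured probe gave 0.12 (*P*-value = 0.213). The *Snrpn* call was lost in 1 of 10 alternatives of scaling, filter, test, block or slides. *Snrpd1*, the SmD1 subunit of the ring, ran from -0.55 to 0.63 in Norm (median 0.30) and from 0.07 to 0.95 in Hypox (median 0.49). Its difference was 0.24 (SE 0.106, limma, *P*-value = 0.0287, adjusted *P*-value = 0.29), and was 0.17 (*P*-value = 0.0566) without Norm replicate 5, the array at -0.55, and 0.20 (*P*-value = 0.0594) without Hypox replicate 5. The *Snrpd1* call was also lost in 5 of 10 alternatives of scaling, filter, test, block or slides. The *Snrpn* probe, within the coding sequence at chr7:67132330-67132389 (mm9), is shown because it had the largest rise of the Sm genes.
*Snrpn* probe: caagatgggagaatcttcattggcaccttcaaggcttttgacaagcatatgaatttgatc

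The other ring proteins did not pass the test one by one. *Snrpd2*, *Snrpd3*, *Snrpf* and *Snrpb* gave 0.24, 0.20, 0.17 and 0.15, and *Snrpg* and *Snrpe* gave -0.01 and -0.03. The U1 proteins *Snrpc* and *Snrpa* gave 0.18 (*P*-value = 0.076) and 0.08, and the U2 proteins *Snrpa1* and *Snrpb2* gave 0.05 and -0.03. The 95% interval of a gene in this family spanned a median of 0.25 on either side of its value.

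The Snrnp proteins include parts of U1, U5 and the minor U11/U12 particle. Among them 1 of 10 probes was higher and 0 were lower, against 7.48% and 6.57% of all probes, and the median over 7 genes was 0.07. *Snrnp40*, a WD-repeat protein of U5, ran from -0.51 to 0.15 in Norm (median -0.10) and from -0.15 to 1.48 in Hypox (median 0.02). The *Snrnp40* difference was 0.31 (SE 0.134, limma, *P*-value = 0.0278, adjusted *P*-value = 0.287), but 5 of 12 Hypox arrays lay below the Norm median, and without Hypox replicate 2, the array at 1.48, the value was 0.19 (*P*-value = 0.0261). Without Norm replicate 12 it was 0.28 (*P*-value = 0.0511). The *Snrnp40* call was also lost in 3 of 10 alternatives of scaling, filter, test, block or slides. *Snrnp70*, the main RNA-binding protein of U1, had the lowest value of the family, -0.11 (*P*-value = 0.394). *Snrnp35*, *Snrnp25* and *Snrnp48* of the minor spliceosome gave 0.13, 0.11 and 0.05, *Snrnp200*, the U5 helicase, gave 0.07 at its brightest probe, and *Snrnp27* gave 0.01.

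None of the 8 SF3 probes and none of the 3 U2AF probes was called, against 14.1% of all probes. The SF3 median over 7 genes was 0.11, from *Sf3a2* at -0.12 (*P*-value = 0.29) to *Sf3b2* at 0.23 (*P*-value = 0.0713). *Sf3b2* ran from -0.48 to 0.12 in Norm (median -0.08) and from -0.37 to 1.30 in Hypox (median 0.05), and its value was 0.12 without Hypox replicate 2, the array at 1.30. *Sf3a1*, *Sf3b4* and *Sf3a3* gave 0.22, 0.14 and 0.11, and *Sf3b5* and *Sf3b3* gave 0.05 and -0.05. *U2af1*, which reads the AG of the 3′ splice site, gave 0.00 (*P*-value = 0.965), with means of -0.04 ± 0.23 (Norm) and -0.04 ± 0.33 (Hypox), each the SD of 12 mice. Its relative *U2af1l4* gave 0.21 (*P*-value = 0.131) and 0.11 (*P*-value = 0.237) at its 2 probes, and the former value was 0.09 without Hypox replicate 12.

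**Figure D4:**
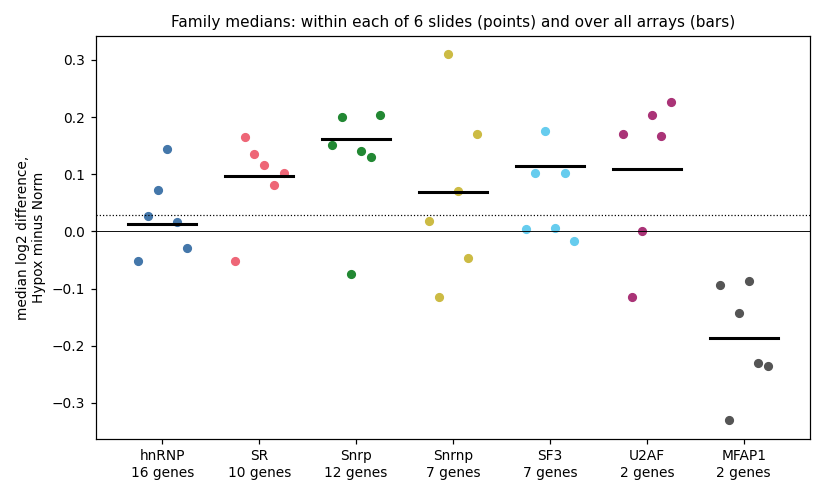
Median log2 difference (Hypox minus Norm) over the genes of each family, brightest probe of each gene; points are the medians within the 6 slides, in slide order, bars the median of the fitted fold changes over all 24 arrays, and the dotted line the median of all genes. The medians of the 2 MFAP1 genes lie below 0 on every slide, from -0.33 to -0.09, although *Mfap1a* by itself was lower on only 4 of 6 slides. Those of the other families cross 0.

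No probe passed the filter for 6 member genes: *Hnrnph3*, *Hnrnpl*, *Sf3b1*, *Srsf10*, *Srsf12* and *U2af2*. In these arrays their level in gastrocnemius was therefore not measured, which includes *Sf3b1* and *U2af2*, the partners of the measured SF3 and U2AF genes. The members nearest inside the filter were probes of *Srsf7*, *Snrpn* and *Hnrnpf*, at 2.02, 2.18 and 2.37 times background, with fold changes of -0.04, 0.12 and -0.26. Those nearest outside it were probes of *Pnisr*, *Hnrnpa3* and *Sf3b1*, at 1.95, 1.88 and 1.86 times background, with -0.05, -0.08 and 0.23.

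After removal of group and slide means, the correlation across 24 arrays between pairs of the 56 genes had a median of -0.02 (1540 pairs, from -0.74 to 0.90), against -0.000558 over all genes, and within families the median ran from -0.11 (SF3) to 0.11 (Snrnp). The highest pairs were *Snrpf* with *Hnrnph2* and *Hnrnpf* with *U2af1l4*, both at 0.90, of which the former was 0.83 and the latter 0.55 without the 1 array that moved it most. Of the 15 highest pairs, 4 were under 0.5 without 1 array, 3 of them without Hypox replicate 2, on which *Snrnp40*, *Sf3a1*, *Hnrnpab*, *Snrnp35* and *Sf3b2* stood at 1.30 to 1.48. These correlations describe points that share the array, its brightness and the reference pool.

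**Figure D5:**
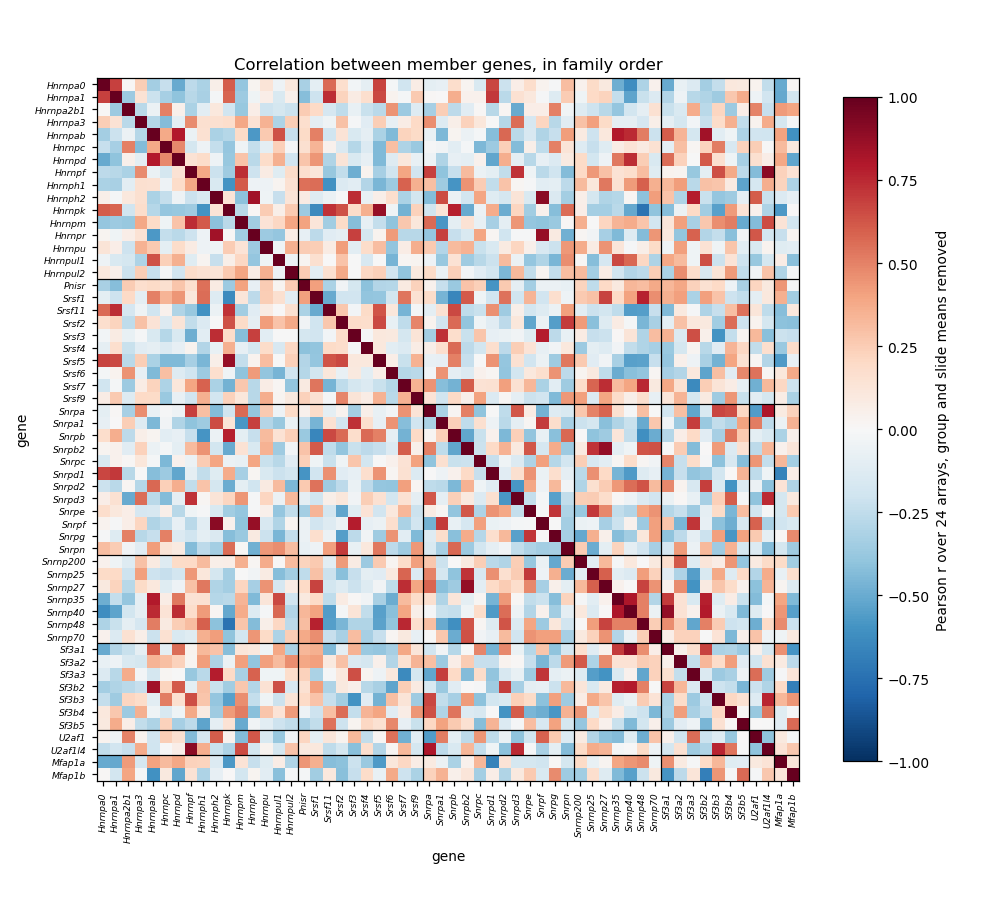
Pearson correlation between the 56 measured member genes (brightest probe) over 24 arrays after group and slide means were removed, with genes in family order and lines between families; red is positive and blue negative. The median is -0.02 over all pairs, and within the family blocks it runs from -0.11 (SF3) to 0.11 (Snrnp).

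The wider splicing machinery outside the naming rule was read from 7 lists of 181 genes, of which 151 were measured. Of these, 14 were higher and 6 lower in Hypox at unadjusted *P*-values under 0.05 (13.2%, against 12.1% of all genes), 0 passed adjustment in limma, and the median was 0.05. For comparison with the single lists, which were small, 7.07% of all genes were higher and 4.99% lower. Of all genes 58.8% lay above 0, with a median of 0.03. In the core spliceosome list 4 of 56 were higher and 2 lower. In the list of SMN complex and snRNP assembly genes 4 of 16 were higher, 16 of 16 lay above 0 and the median was 0.13. Among the Lsm proteins, relatives of the Sm ring, 3 of 9 were higher and the median was 0.19. Of the SR kinases and SR-like genes 2 of 18 were lower, of the muscle splicing regulators 1 of 16 was lower, of the hnRNP-like binders 2 of 21 were higher, and of the exon junction genes 1 of 15 was higher and 1 lower.

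The smallest *P*-values above 0 were those of *Lsm4*, *Smn1* and *Ddx20*. *Lsm4*, of the U6-binding Lsm ring, was 0.32 higher (Norm -0.35 ± 0.17, Hypox -0.03 ± 0.21, SD of 12 mice per group, limma adjusted *P*-value = 0.0557). *Smn1*, which loads Sm rings onto small nuclear RNAs, was 0.26 higher, and *Ddx20* (Gemin3) of the same complex was 0.17 higher, with adjusted *P*-values of 0.132 and 0.142 in limma. Each of the 3 was higher on 6 of 6 slides. In the other direction, *Dyrk1a*, a kinase that phosphorylates splicing factors among its targets, fell by 0.33, *Cwc22*, which ties the spliceosome to the exon junction complex, fell by 0.26, and *Luc7l3*, a U1-associated protein, fell by 0.42, with limma adjusted *P*-values of 0.0786, 0.0962 and 0.177. Beyond these, *Raly* and *Ewsr1* of the hnRNP-like binders were 0.46 and 0.19 higher, *Lsm10* 0.19 and *Upf3b* 0.23 higher, while *Srpk2*, a kinase of SR proteins, fell by 0.26, *Rbfox2*, a muscle splicing regulator, by 0.26 and *Acin1* by 0.30, with limma adjusted *P*-values from 0.155 to 0.262.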

How the data were processed

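Per the labels, gastrocnemius RNA of each mouse was labelled with Cy5 and hybridised with a Cy3 reference pool on Agilent 2-colour arrays, and the authors deposited scanner intensity files (Agilent Feature Extraction 10.7.3.1, per the submitters' processing notes) and a normalized log2 table. No column of the authors' own comparisons was used. Intensities were background-corrected (normexp, offset 50), loess-normalized within arrays with control and flagged spots at weight 0 (7260 flagged readings, 0 saturated), and averaged per probe. Probes with a mean Cy5 signal over 2 times background and at most 4 missing arrays were fitted in limma 3.58.1 (R 4.3.3) without a block, as in the study's methods, with Benjamini-Hochberg adjustment over 14312 probes. A call is an unadjusted *P*-value under 0.05. Slides held 2 arrays of each group. The script was tested on simulated data. The number of arrays limits the precision.

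Probe names were updated through RefSeq (of 113 member probes 102 matched by accession, 10 by symbol and 1 by synonym). Named genes were those called by their brightest probe, the extremes of each family, genes with probes over 0.3 apart, all U2AF and MFAP1 genes, *Hnrnpf*, the 3 members on either side of the filter, and from the lists the 3 smallest *P*-values in each direction with up to 2 more in a list. The rest, including the probes called beside a brighter one, were named after their values were seen. Members and lists were chosen with earlier results of these data known. Some dye labels of Hypox samples differ from Cy5, and Cy5 was read from each sample's description. Alternatives were other scalings, filters, tests, blocks and leaving out arrays. Sequences came from the array files and RefSeq (GRCm38.p6), and figures were drawn with matplotlib 3.10.9 (Python 3.11.15, numpy 2.4.6, pandas 2.3.3). A further marker list is not reported here.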

Additional observations from a re-analysis of the deposited data

How the results depend on the processing

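The number of member probes called, and its place above or below the share of all probes, depended on the scaling and filter. Of 12 called (8 higher, 4 lower, 1 adjusted), Agilent processed signals gave 15 with 0 adjusted (17.9% of members against 13.9% of all probes), median centring gave 0 in either direction and 0 adjusted, the Cy5 channel alone gave 5 (2 higher, 3 lower, 0 adjusted; 5.95% against 9.36%), and the deposited log2 table gave 7 of 99 (5 higher, 2 lower, 0 adjusted; 7.07% against 5.03%). Only probes over 4 times background gave 5 (5 higher, 0 lower, 0 adjusted), no filter gave 17 of 113 (15.04% against 8.06%), and 1 probe a gene gave 7 (1 lower). Without slide 1, a choice made after seeing the data, 11 were called, 2 of them lower. Leaving out each array in turn gave 9 to 15 called, 2 to 4 lower and 1 to 2 adjusted. The lower count was 2 without Hypox replicate 2, 11 or 12, and the adjusted count was 2 without Hypox replicate 12. The cause was not tested.

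Under median centring the family medians were 0.24 (hnRNP), 0.28 (SR), 0.39 (Snrp), 0.39 (Snrnp), 0.37 (SF3), 0.45 (U2AF), 0.017 (MFAP1) and 0.35 (all members), where the median of all genes was 0.25. The SR median was 0.23 with processed signals, and the median of all members was 0.18 in the deposited table. Relative to the median of all genes in the same scaling, the 12 called probes kept their sign in the 4 other scalings, and 10 of 12 did so as given. MFAP1 had no probe over 4 times background. Among named probes the sign turned with processed signals for *Srsf7* (0.041), *Snrpb2* (0.080) and *Mfap1a* (0.10). With median centring it turned for *Hnrnpa2b1* (0.17), *Hnrnpa3* (0.026), *Hnrnpc* (0.017), *Srsf7* (0.078), *Snrpb2* (0.23), *Snrnp70* (0.14), *Sf3a2* (0.30) and *Mfap1a* (0.16). With Cy5 alone it turned for *Snrpb2* (0.10) and *U2af1* (-0.084), and in the deposited table for *Snrpb2* (0.083), *Sf3a2* (0.12) and *Mfap1a* (0.015). The *Srsf7* values here are of its probe at 2.02 times background, and those of *Hnrnpa3* and *Hnrnpc* of their probes called lower. None of these is the brightest probe of its gene. Leaving out 1 array gave -0.069 to 0.038 for *Snrpb2*, -0.047 to 0.066 for *U2af1* and -0.044 to 0.016 for *Mfap1a*.

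Replicate numbers are shared between the groups, but same-numbered arrays correlated at -0.216 to 0.534, with 3 of 12 pairs over 0.1, so the numbers do not pair the samples. The replicate block gave 11 member probes called.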
